A study of Mus musculus with 5 samples.

Results

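The 7 interferon-induced genes Ifi27l2a, Bst2, Isg15, Irf7, Ifitm1, Ifitm2 and Ifitm3 are described here out of the 27998 genes of 5 droplet libraries of mouse bone marrow cells. All 7 members were found among the 27998 genes by their Ensembl identifiers. Ifi27l2a was chosen by its measured level in these libraries, which was lower in B-lineage cells of aged than of young mice, and the other 6 were added because interferons are known to induce them. The 3 young libraries (replicates 1, 2 and 3) came from mice of 10 to 12 weeks and the 2 aged libraries (replicates 2 and 3) from mice of over 20 months. All mice carried the Nes-GFP reporter, which marks cells in which nestin regulatory sequence is active. Cells negative for CD45 and positive for CD31, an adhesion protein of vessel lining that some blood cells also carry, were sorted from endosteal preparations, frozen, thawed and counted as unique molecular identifiers (UMIs) at the 3' ends of RNAs. Nothing in the labels says whether a library held 1 animal or several, so p-values speak for these libraries only. For comparisons within libraries they rest on the spread left after library and cell class are fitted. That spread is taken over all classes in the fit and drawn towards the spread of other genes. They therefore do not measure how 1 difference of 1 gene varies from library to library. For age they rest on the spread between libraries, drawn towards other genes in the same way.

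Interferons are signalling proteins released on viral infection. Type I interferons bind the receptor chains Ifnar1 and Ifnar2, the kinases Jak1 and Tyk2 pass the signal on, and a complex that holds Irf9 then binds a short element, the interferon-stimulated response element (ISRE), in the promoters of many antiviral genes. Interferon gamma acts at a different element, the gamma-activated site (GAS). Many of these genes are also read at a low level without infection, and type I interferon is known to restrain early B-cell growth in marrow.

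The members have different tasks. Ifi27l2a encodes a small hydrophobic protein of the Ifi27 (ISG12) family. Bst2 encodes tetherin, which holds budding virus at the cell surface and is a widely used surface marker of plasmacytoid dendritic cells. Isg15 is a ubiquitin-like protein that is joined to other proteins, and Irf7 is the transcription factor that amplifies type I interferon genes. Ifitm1, Ifitm2 and Ifitm3 encode membrane proteins that hinder virus entry. On GRCm38, Ifi27l2a lies on chromosome 12 (103442167 to 103443680, minus strand), Bst2 on chromosome 8 (71534255 to 71537456, minus strand) and Isg15 on chromosome 4 (156199424 to 156200818, minus strand). The other 4 lie on chromosome 7: Ifitm2 (140954837 to 140955987, minus strand), Ifitm1 (140967221 to 140969825, plus strand), Ifitm3 (141009586 to 141010770, minus strand) and Irf7 (141262706 to 141266481, minus strand). The stretch from Ifitm2 to Ifitm3 spans 55934 bp. All 7 are annotated as protein coding.

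Promoter windows were searched because a shared element is the common feature of this gene group. RefSeq windows on GRCm38.p6, 300 bases long, were found for 6 of the 7 members (all but Ifi27l2a). The ISRE core searched was a pair of GAAA blocks with 2 bases of any kind between them, and the GAS was TTCNNNGAA, both on either strand. The ISRE core was present in 4 of the 6 windows and in 3.44% of 32851 RefSeq windows of the same length. The GAS was present in 2 of the 6, against 8.30% of all windows. No copy of either was found in the windows of Irf7 and Ifitm1. The Ifitm1 window (140967826 to 140968125) lay inside the gene as placed above. The sequence before the annotated 5' end of Ifitm1 was therefore not searched. The 4 windows with an ISRE core are shown from 150 bases before the start site to 30 bases from it, 5' to 3' on the gene's strand, with matches in capitals.
Bst2 (chr8:71537443-71537622, minus strand): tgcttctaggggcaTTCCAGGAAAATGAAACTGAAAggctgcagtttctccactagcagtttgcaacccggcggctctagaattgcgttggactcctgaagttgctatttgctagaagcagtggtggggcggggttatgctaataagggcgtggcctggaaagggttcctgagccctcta
Isg15 (chr4:156200789-156200968, minus strand): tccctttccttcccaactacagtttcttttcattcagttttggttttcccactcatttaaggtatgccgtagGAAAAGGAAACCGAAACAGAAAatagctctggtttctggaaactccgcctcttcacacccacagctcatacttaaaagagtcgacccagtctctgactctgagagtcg
Ifitm2 (chr7:140955932-140956111, minus strand): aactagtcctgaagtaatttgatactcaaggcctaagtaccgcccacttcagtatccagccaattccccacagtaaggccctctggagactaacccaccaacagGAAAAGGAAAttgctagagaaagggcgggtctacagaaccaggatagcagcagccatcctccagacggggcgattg
Ifitm3 (chr7:141010715-141010894, minus strand): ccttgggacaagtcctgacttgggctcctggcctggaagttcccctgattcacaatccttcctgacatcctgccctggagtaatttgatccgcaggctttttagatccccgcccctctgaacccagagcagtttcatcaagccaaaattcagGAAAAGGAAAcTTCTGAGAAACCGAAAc
Bst2 held 2 overlapping ISRE cores (130 to 115 bases before the start), with a GAS (136 to 128 before) that overlaps the first. Isg15 held 3 overlapping cores between 78 and 57 bases before the start. Ifitm2 held 1 core, 46 to 37 bases before the start. Ifitm3 held 2 cores, at bases 2 to 11 and 19 to 28 after the start, and a GAS at bases 13 to 21 that overlaps the second. A match is a description of letters and not of a bound site.

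After a filter on depth and mitochondrial share, 2116 of 3384 barcodes were kept, with total UMIs per library from 935656 to 5900751 and median UMIs per kept cell from 1889.5 to 4212.5. Although the sort was labelled endothelial, 1907 kept cells lay in clusters called B-lineage. The other 209 lay in clusters set apart by neutrophil, monocyte or endothelial markers among their leading genes. Of the 209, 18 held at least 7 of 14 endothelial markers and are called endothelial-like. B-lineage markers did not make this split. Of 12 such markers, 10 to 12 were found in at least 10% of cells in each B-lineage cluster. The endothelial-like cells had 7, and the clusters of other cells 9 to 11. The libraries of replicate 2 stood apart from the rest: young and aged replicate 2 had 0 UMIs of Xist and 224 and 284 of Y-linked genes, while the other 3 libraries had 1118 to 8562 and at most 1. Between 0 and 11 cell barcodes were shared by any 2 libraries, most by young and aged replicate 2 (11) and by young and aged replicate 3 (9). Stage results are therefore also given without replicate 2, and the 30 kept cells with a shared barcode were left out as an alternative.

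B-lineage cells were divided on other genes than the members. Each cell was thinned to 1000 UMIs, and 954 cells with at least 2 of 30 cell cycle genes were called dividing. Of the resting cells, 312 with at least 2 UMIs of Vpreb1, Vpreb2, Igll1 and Dntt (surrogate light chain and terminal transferase genes of pro-B and pre-B cells) were called early. Another 207 with at least 2 UMIs of Cd74, H2-Aa, H2-Ab1 and H2-Eb1 (antigen presentation genes of maturing B cells) were called late, and the other 434 middle. These are ranges and not cell types: 54 middle cells were 1 UMI short of the early cut and 102 of the late cut, 24 early and 44 late cells lay on it, and 431 resting cells were 1 gene short of the dividing cut. Genes outside the cuts followed the labels, with Ms4a1 (CD20) at 16.3 CPM (counts per 1000000 UMIs of a sum) in early, 87.0 in middle and 307 in late cells, and Cd2 at 61.0, 877 and 623 CPM. Every library held 20 to 137 cells in each resting range and 65 to 631 dividing cells. UMIs were summed per library and range, and the ranges were compared within libraries.

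Ifi27l2a was higher in late than in early cells, but not in every library. Early cells held 223, 167 and 227 CPM in the young libraries (replicates 1, 2, 3) and 73.8 and 72.1 CPM in the aged ones (replicates 2, 3). Late cells held 754, 131 and 759 CPM in the young libraries and 69.5 and 157 CPM in the aged. The level in late cells was 3.38, 3.35 and 2.17 times that in early cells in 3 libraries, young replicates 1 and 3 and aged 3, and 0.781 and 0.941 times in young and aged replicate 2. In the fit over all 5 libraries the log2 fold change was 1.19 ± 0.23 (SE; edgeR quasi-likelihood F test, Benjamini-Hochberg adjusted p = 0.000172, higher in 3 of 5 libraries). Of the 4069 genes tested in this contrast, 16.7% were called, 8.53% higher and 8.16% lower, and late cells were above early cells in all 5 libraries for 10.2%. Without both libraries of replicate 2 the value was 1.66 ± 0.23 (edgeR adjusted p = 1.38e-06), and in those libraries alone it was -0.15 ± 0.43 (edgeR adjusted p = 0.926); the difference between these sets of libraries was not tested. The call was also lost without young replicate 3 (0.84, adjusted p = 0.0631), with no library block (1.40, adjusted p = 0.189) and with ranges cut on full counts in place of thinned ones (0.53, adjusted p = 0.314).

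**Figure D1:**
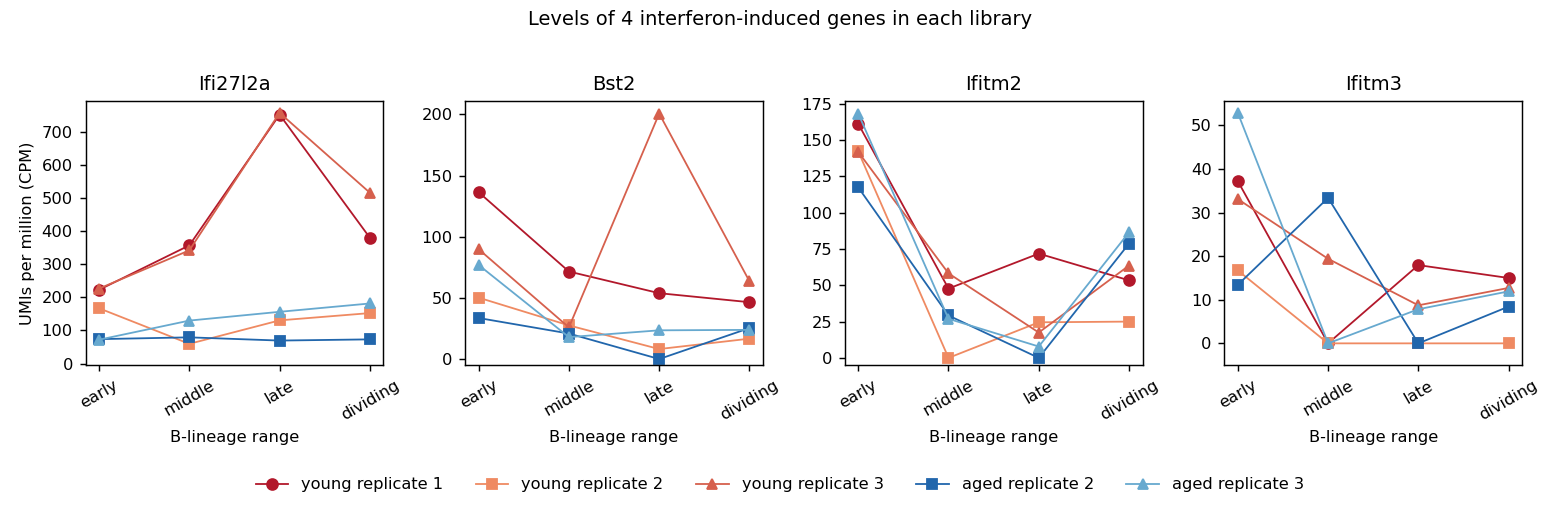
Level of Ifi27l2a, Bst2, Ifitm2 and Ifitm3 in CPM (vertical axes, 1 scale per gene) in early, middle, late and dividing B-lineage cells (horizontal axes), with 1 line per library, red for young and blue for aged. Ifi27l2a climbs to 754 and 759 CPM in late cells of young replicates 1 and 3 and stays between 59.6 and 167 CPM over the resting ranges of young replicate 2, while Ifitm2 is highest in early cells in all 5 libraries.

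Ifitm2 moved the other way. It stood at 161, 142 and 142 CPM in early cells of young replicates 1, 2 and 3 and at 117 and 168 CPM in aged replicates 2 and 3. Late cells held 71.8, 24.5 and 17.5 CPM in the young libraries and 0 and 7.83 CPM in the aged. Late cells were below early cells in all 5 libraries, which was so for 13.4% of genes tested. The late sums were small, with 10 UMIs in all against 130 in early cells. The log2 fold change was -2.66 ± 0.45 (SE; edgeR adjusted p = 1.76e-05), and the gene passed under all 18 alternatives, at -3.17 to -2.28. In the libraries of replicate 2 alone it was -2.65 ± 0.78 (edgeR adjusted p = 0.0365), and without them -2.67 ± 0.50. The difference between the changes of Ifi27l2a and Ifitm2 was not itself tested.

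Bst2 held 136, 50.2, 89.8, 33.5 and 76.9 CPM in early cells of young replicates 1, 2 and 3 and aged replicates 2 and 3, and 53.8, 8.17, 201, 0 and 23.5 CPM in late cells in the same order. The late value lay below the early one in 4 of 5 libraries and above it in young replicate 3. In young replicate 3 a single late cell stood out. It held 5013 UMIs, 7 of 8 plasmacytoid dendritic cell markers, 0 UMIs of Cd79a and 123 of Cd74, and it carried 19 of the 23 Bst2 UMIs of its sum. The other 4 UMIs give 36.5 CPM. With that cell the log2 fold change was -0.22 ± 0.40 (edgeR adjusted p = 0.790), and without it -1.60 ± 0.43 (edgeR adjusted p = 0.00644, an alternative added after seeing the data). Without young replicate 3 it was -1.75 ± 0.52 (edgeR adjusted p = 0.0224), and without aged replicate 3 it was 0.07.

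Ifitm3 fell short of the filter on low counts for the stage fits, as did Isg15, Irf7 and Ifitm1, so 3 of the 7 members were tested. Ifitm3 held 37.2, 16.7, 33.1, 13.4 and 52.9 CPM in early cells and 17.9, 0, 8.73, 0 and 7.83 CPM in late cells, in the order used above. It was lower in late cells in 5 of 5 libraries on 27 early and 3 late UMIs. With no filter its log2 fold change was -2.11 ± 0.75 (edgeR adjusted p = 0.0784). In middle cells it had 11 UMIs, and 10 of these came from 2 cells. Those 2 cells, in young replicate 3 and aged replicate 2, each held 8 of 14 endothelial markers, 0 UMIs of Cd79a and 2 of Ebf1, although they clustered with B-lineage cells. Without them the middle sums of young replicate 3 and aged replicate 2 held 0 and 1 Ifitm3 UMIs.

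Isg15, Irf7 and Ifitm1 were near the limit of detection in B-lineage cells. Isg15 had 6, 3, 1 and 11 UMIs in early, middle, late and dividing cells, Irf7 had 15, 2, 1 and 16, and Ifitm1 had 11, 6, 1 and 23. Irf7 was found in early cells of all 5 libraries, at 4.81 to 23.6 CPM, and in late cells of 1. Of the 11 Ifitm1 UMIs in early cells, 9 came from aged replicate 3. With no filter the late minus early log2 fold changes were -1.45 ± 1.54 for Isg15, -2.57 ± 1.22 for Irf7 and -2.44 ± 1.24 for Ifitm1 (edgeR adjusted p = 0.850, 0.304 and 0.366), so differences of these 3 genes were not detectable at this depth.

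Marker sums moved along these ranges too. The 8 erythroid markers together held 142 to 298 CPM in early and 17.5 to 102 CPM in late sums, and the 8 progenitor markers 37.8 to 96.1 and 0 to 52.1 CPM. The 12 monocyte markers held 360 to 708 CPM in early and 574 to 1012 CPM in late sums. These markers include Irf8, a gene also read in B-lineage cells, which alone averaged 332 CPM in early and 529 CPM in late sums. The 8 plasmacytoid markers held 14.4 to 63.7 and 52.1 to 445 CPM. The 445 CPM was in young replicate 3, whose late sum holds the plasmacytoid-marker cell. Median depth was 2708.5 UMIs in early, 1930.5 in middle, 2164 in late and 3578.5 in dividing cells. The part of these in the results was not tested.

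Ifitm2 and Bst2 were lower in middle than in early cells, and Ifi27l2a did not pass. Ifitm2 was at 47.7, 0, 58.2, 29.2 and 26.9 CPM in middle cells, and its middle minus early log2 fold change was -2.25 ± 0.34 (edgeR adjusted p = 1.73e-06, lower in 5 of 5 libraries). Bst2 held 71.6, 27.5, 25.9, 20.9 and 17.9 CPM in middle cells and fell by 1.19 ± 0.41 on the log2 scale (edgeR adjusted p = 0.0293, lower in 5 of 5 libraries). In this contrast 20.9% of genes tested were called, 10.6% as higher and 10.3% as lower. The share of all genes lower in 5 of 5 libraries was not counted here. The Bst2 call was lost with DESeq2 (adjusted p = 0.0626), with a minimum of 1500 UMIs (0.0762), with no library block (0.203) and without aged replicate 3 (0.184). Ifi27l2a held 358, 59.6, 343, 79.2 and 130 CPM in middle cells (0.29 ± 0.24, edgeR adjusted p = 0.439). It was higher than in early cells in 4 of 5 libraries and lower in young replicate 2, and with ranges cut on full counts its change was -0.44. Over the 18 alternatives its change ran from -0.63 to 0.70, and it was called under 1 of them.

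From middle to late, 0.319% of genes were called and none of the 3 tested members passed. Ifi27l2a gave 0.89 ± 0.23 (edgeR adjusted p = 0.0742), higher in 4 of 5 libraries. It passed with no filter on low counts (0.82, adjusted p = 0.0406) and without replicate 2 (0.96, adjusted p = 0.0313). Ifitm2 gave -0.42 ± 0.62 (edgeR adjusted p = 0.922) and Bst2 0.97 ± 0.48 (edgeR adjusted p = 0.682), which became -0.36 without the plasmacytoid-marker cell.

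**Figure D2:**
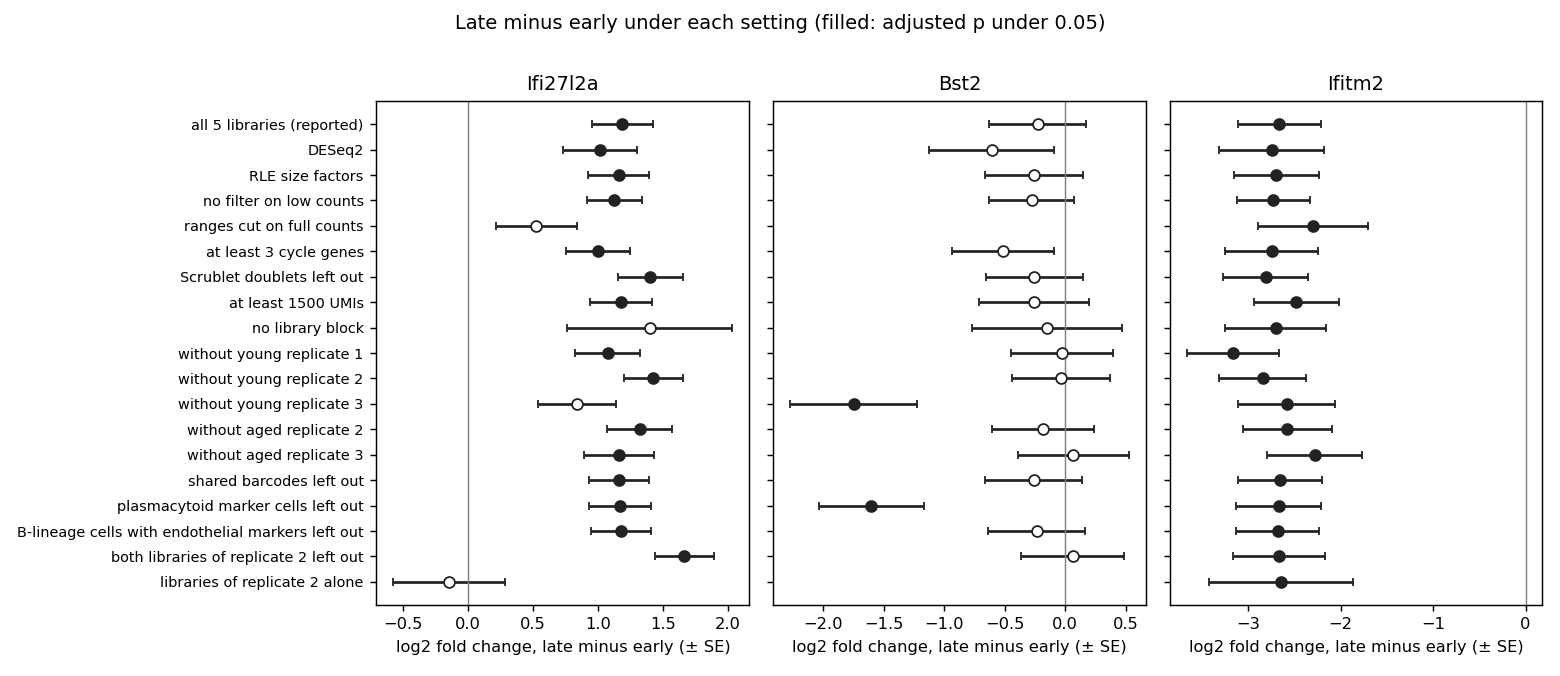
Late minus early log2 fold change with its standard error (horizontal axes) for Ifi27l2a, Bst2 and Ifitm2 under the reported setting and each alternative (vertical axis), with filled points where the adjusted p was under 0.05. Ifitm2 is filled throughout, Ifi27l2a crosses 0 in the libraries of replicate 2 alone, and Bst2 is filled without young replicate 3 and without the plasmacytoid-marker cell; 2 Bst2 values are missing where it did not pass the filter.

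Dividing cells were compared with middle resting cells. Ifi27l2a held 381, 153, 517, 73.1 and 182 CPM in dividing cells of young replicates 1, 2 and 3 and aged replicates 2 and 3, above the middle value in all but aged replicate 2. Its log2 fold change was 0.51 ± 0.20 (edgeR adjusted p = 0.0365). Ifitm2 held 53.4, 25.0, 63.6, 78.7 and 86.4 CPM and was above the middle value in 5 of 5 libraries, at 1.07 ± 0.36 (edgeR adjusted p = 0.0176). In this contrast 36.8% of genes tested were called, 20.0% as higher and 16.7% as lower. The share of all genes higher in 5 of 5 libraries was not counted here. Bst2 held 46.5, 16.7, 63.6, 25.3 and 23.8 CPM and gave 0.18 ± 0.41 (edgeR adjusted p = 0.764). The Ifi27l2a call was lost under 9 of 18 alternatives and the Ifitm2 call under 7, which included leaving out replicate 2 for both (0.42, adjusted p = 0.124, and 0.69, adjusted p = 0.237).

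Dividing cells could be split by the same early and late genes, as a description with no test. Pooled over libraries, of which young replicate 1 gave 631 of the 954 cells, Ifi27l2a was at 158 CPM in the 170 dividing cells of early type, 345 in the 528 of middle type and 500 in the 256 of late type. Ifitm2 ran the other way, at 118, 39.0 and 25.5 CPM, as did Bst2 at 84.7, 28.8 and 23.5 CPM and Ifitm3 at 21.4, 10.7 and 8.82 CPM. By library, Ifi27l2a was higher in late-type than in early-type dividing cells in young replicates 1 (573 against 149 CPM), 2 (251 against 230) and 3 (479 against 382) and aged replicate 3 (409 against 117). In aged replicate 2 the order was reversed (72.1 against 105 CPM). The late type held 9 cells there, and the early type 9 in young replicate 2.

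Pooled over libraries, Ifi27l2a and Ifitm2 also differed by phase, again as a description with no test. Young replicate 1 gave 631 of the 954 dividing cells and 178 of the 259 Ifitm2 UMIs in them. Cells with more S than G2/M genes held 251 CPM of Ifi27l2a and 68.6 of Ifitm2, while cells with more G2/M genes held 476 and 41.3 CPM. For Ifi27l2a the G2/M value was above the S value in 4 of 5 libraries, from 484 against 301 CPM in young replicate 1 to 1484 against 408 in young replicate 3 on 13 G2/M cells. Aged replicate 2 had 71.7 against 79.4 CPM. For Ifitm2 only the pooled values are given here. The phase values are not split by early, middle and late type, along which both genes also differed. Phase and type are therefore not told apart here.

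Whether cells with Ifi27l2a also held the other members was read on thinned cells. Late cells with an Ifi27l2a UMI (41 of 207) held 29.3 UMIs of the other 6 genes per 100 cells and those without held 6.02. Of the 12 UMIs behind the first value, 7 were from 1 cell, the plasmacytoid-marker cell of young replicate 3. Middle cells held 24.5 with and 5.45 without Ifi27l2a, and 8 of the 12 UMIs behind the first of these were from 1 cell. That cell was the one of aged replicate 2 with endothelial markers, described above. Early cells held 41.9 with and 30.2 without, and dividing cells 13.2 and 11.7.

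Across the 20 sums of 5 libraries by 4 ranges, likeness to Ifi27l2a was measured as Pearson's r of log2(CPM + 10). The sums share libraries and depth, so r is a description. Bst2 had r = 0.58 and ranked 50 of 5623 genes with a mean of at least 20 CPM, and Ifitm2 had r = 0.19 and ranked 995. Without the plasmacytoid-marker cell Bst2 had r = 0.43 and ranked 247 of 5622. The other members lay below that mean level, with r of 0.12 for Isg15, -0.05 for Irf7, -0.28 for Ifitm1 and 0.12 for Ifitm3. With each library's mean subtracted, so that only differences between ranges remain, no other member had a positive r: Bst2 had -0.09, Ifitm2 -0.12, Isg15 -0.04, Irf7 -0.46, Ifitm1 -0.68 and Ifitm3 -0.26. Of the 5623 genes, 52.6% had a higher r than Isg15, 58.0% than Bst2 and 61.7% than Ifitm2, so these 3 lay near the middle of all genes. The shares were 76.7% for Ifitm3, 91.8% for Irf7 and 99.2% for Ifitm1. Genes of highest r over the sums included Tmsb4x (0.74), Itga6 (0.72), mt-Atp6 (0.72) and Gm26917 (0.71). With library means subtracted they were Ndufa11 (0.87), Gngt2 (0.80), Cfl1 (0.76), Pigt (0.76) and Acly (0.76). None of these genes is in the interferon lists used.

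The age contrast chose Ifi27l2a, so its values are a description. Resting B-lineage cells held 409, 106 and 391 CPM of Ifi27l2a in young replicates 1, 2 and 3 and 75.6 and 115 CPM in aged replicates 2 and 3 (young 302 ± 170, SD, n = 3; aged 95.05 ± 27.5, n = 2). The groups overlap, because young replicate 2 lay below aged replicate 3. The log2 fold change, aged minus young, was -1.75 ± 0.49 in resting and -1.54 ± 0.53 in dividing cells. No gene of 5964 in resting or 4983 in dividing cells passed an adjusted p of 0.05 (0% called by edgeR and 0 genes by DESeq2; 119 and 178 genes were under an unadjusted 0.05 by edgeR). Bst2 ran alongside, at 90.8, 28.3, 95.7, 25.2 and 41.2 CPM in resting cells (log2 fold change -1.15, or -0.80 without the plasmacytoid-marker cell). Its groups overlap in the same way.

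Ifitm2 and Ifitm3 did not show this order. Ifitm2 held 95.4, 43.5, 85.3, 70.5 and 75.1 CPM in resting cells, a log2 fold change of -0.08, and in dividing cells both aged libraries lay above all young ones (0.69), which was so for 12.2% of genes tested. Ifitm3 held 18.2, 4.35, 22.9, 20.2 and 21.5 CPM, a change of 0.41. Young replicate 2 was lowest of all libraries for Ifitm2 and Ifitm3 in resting cells. Isg15 held 0 to 8.32 CPM and Irf7 3.58 to 12.5 CPM over the resting sums. Ifitm1 held 13.6, 4.35, 0, 3.36 and 19.7 CPM there, in the same order of libraries.

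**Figure D3:**
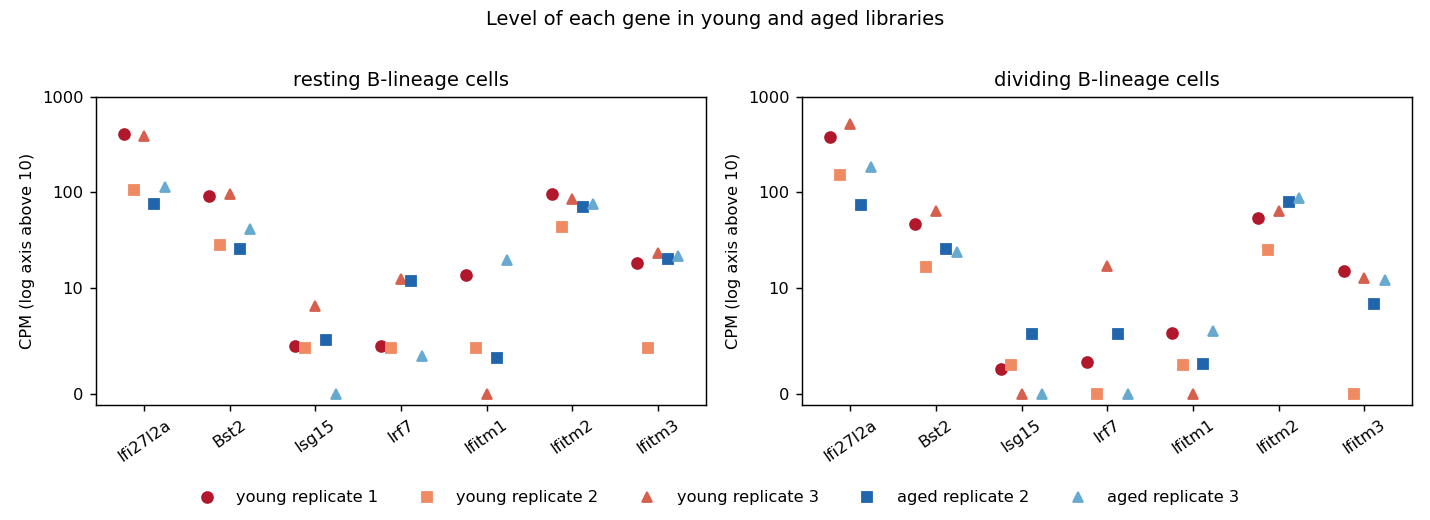
Level in CPM (vertical axes, log scale above 10 and linear below) of the 7 genes in resting (left) and dividing (right) B-lineage cells, with 1 point per library, red for young and blue for aged. Ifi27l2a and Bst2 are highest in young replicates 1 and 3, and young replicate 2 lies with the aged libraries; Ifitm2 stands between 43.5 and 95.4 CPM in resting cells with the groups mixed.

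The summed level of 12 neutrophil markers was highest in young replicates 1 and 3, as Ifi27l2a was. It was 263, 2.17, 204, 15.1 and 111 CPM in resting B-lineage sums, lowest in young replicate 2, while Ifi27l2a was lowest in aged replicate 2. The 12 monocyte markers ran otherwise, at 441, 785, 661, 741 and 637 CPM in the same order. The part of RNA from other cells in the age values was not tested. Cells that were neither B-lineage nor endothelial-like held 88.8 CPM of Ifi27l2a in young replicate 1 (177 cells), 361 in young replicate 3 (4 cells) and 265 in aged replicate 3 (8 cells), against 381, 517 and 182 CPM in the dividing B-lineage cells of the same libraries. The UMIs behind the first 3 values came from 66, 1 and 2 cells. From early to late cells the neutrophil-marker sum went from 285 to 179 CPM in young replicate 1, from 175 to 201 in young replicate 3 and from 101 to 86.1 in aged replicate 3, the 3 libraries in which Ifi27l2a was higher in late cells. It went from 0 to 8.17 CPM in young replicate 2 and from 16.8 to 0 in aged replicate 2, where Ifi27l2a was not higher in late cells.

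Whether the late minus early difference depends on age was tested with an interaction term. It was -0.60 ± 0.53 for Ifi27l2a and -2.42 ± 1.23 for Ifitm2 (edgeR adjusted p = 0.999 for both), and 0.0492% of 2034 genes tested were called. Bst2 did not pass the filter in that fit.

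Outside the B lineage the members were distributed differently, again as a description. The 191 cells that were neither B-lineage nor endothelial-like came mostly from young replicate 1 (177 cells), so their clusters may reflect that library. In that library Ifitm2 was at 676 CPM in them and at 53.4 in dividing B-lineage cells, whereas Ifi27l2a was at 88.8 and 381. The cluster led by Ly6c2 and Lyz2, genes of monocytes, had 654 CPM of Ifitm3, 911 of Ifitm2 and 199 of Ifi27l2a. The cluster led by Tyrobp, Lgals3 and Fcer1g had 896 CPM of Bst2, which is itself among its leading genes, and 253 of Ifi27l2a. The cluster with Mcpt8, Prss34 and Cpa3, genes of basophils and mast cells, had 896 CPM of Ifitm1 and 1017 of Ifitm2, and the cluster led by Ctla2a, Myct1 and Cd34 had 698 of Ifitm1. Clusters led by Elane and S100a8, genes of granulocyte precursors, had 29.1 and 10.7 CPM of Ifi27l2a. Isg15 was at 0 to 23.2 CPM and Irf7 at 0 to 20.5 CPM over these 8 clusters.

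The 18 endothelial-like cells (7, 1, 1, 1 and 8 in young replicates 1, 2 and 3 and aged replicates 2 and 3) held Ifi27l2a, Isg15, Irf7, Ifitm2 and Ifitm3 at higher pooled levels than any of the 4 B-lineage ranges and the 8 clusters above. They all had UMIs of Cdh5, none had UMIs of Ptprc (CD45), and 4 had UMIs of Cd79a. All 18 held Ifitm3 and all 18 held Ifitm2, with 176 and 83 UMIs of 49650, or 3545 CPM (95% Poisson interval 3040 to 4109, counting error only) and 1672 CPM (1332 to 2072). Between 0.69% and 8.01% of cells in the B-lineage ranges held Ifitm3, at median depths of 1930.5 to 3578.5 UMIs against 2594 in endothelial-like cells. Bst2 was at 745 CPM (525 to 1027) in 12 cells and Ifi27l2a at 685 CPM (474 to 957) in 6 cells. The 34 Ifi27l2a UMIs came from 3 cells of young replicate 1 (21), 1 of young replicate 2 (1) and 2 of aged replicate 3 (12). By library the order was less clear for this gene than in the pool. In young replicate 1 endothelial-like cells held 851 CPM (527 to 1300) and late B-lineage cells 754 (543 to 1019). In aged replicate 3 the values were 681 (352 to 1189) and 157 CPM. Late cells of young replicate 3 held 759 CPM, above the pooled endothelial-like value. Isg15 had 26 UMIs, 23 of them in young replicate 1, and Irf7 8, of which 7 were in young replicate 1. Ifitm1 had 1 UMI. No library held 10 such cells, so no age comparison was made.

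**Figure D4:**
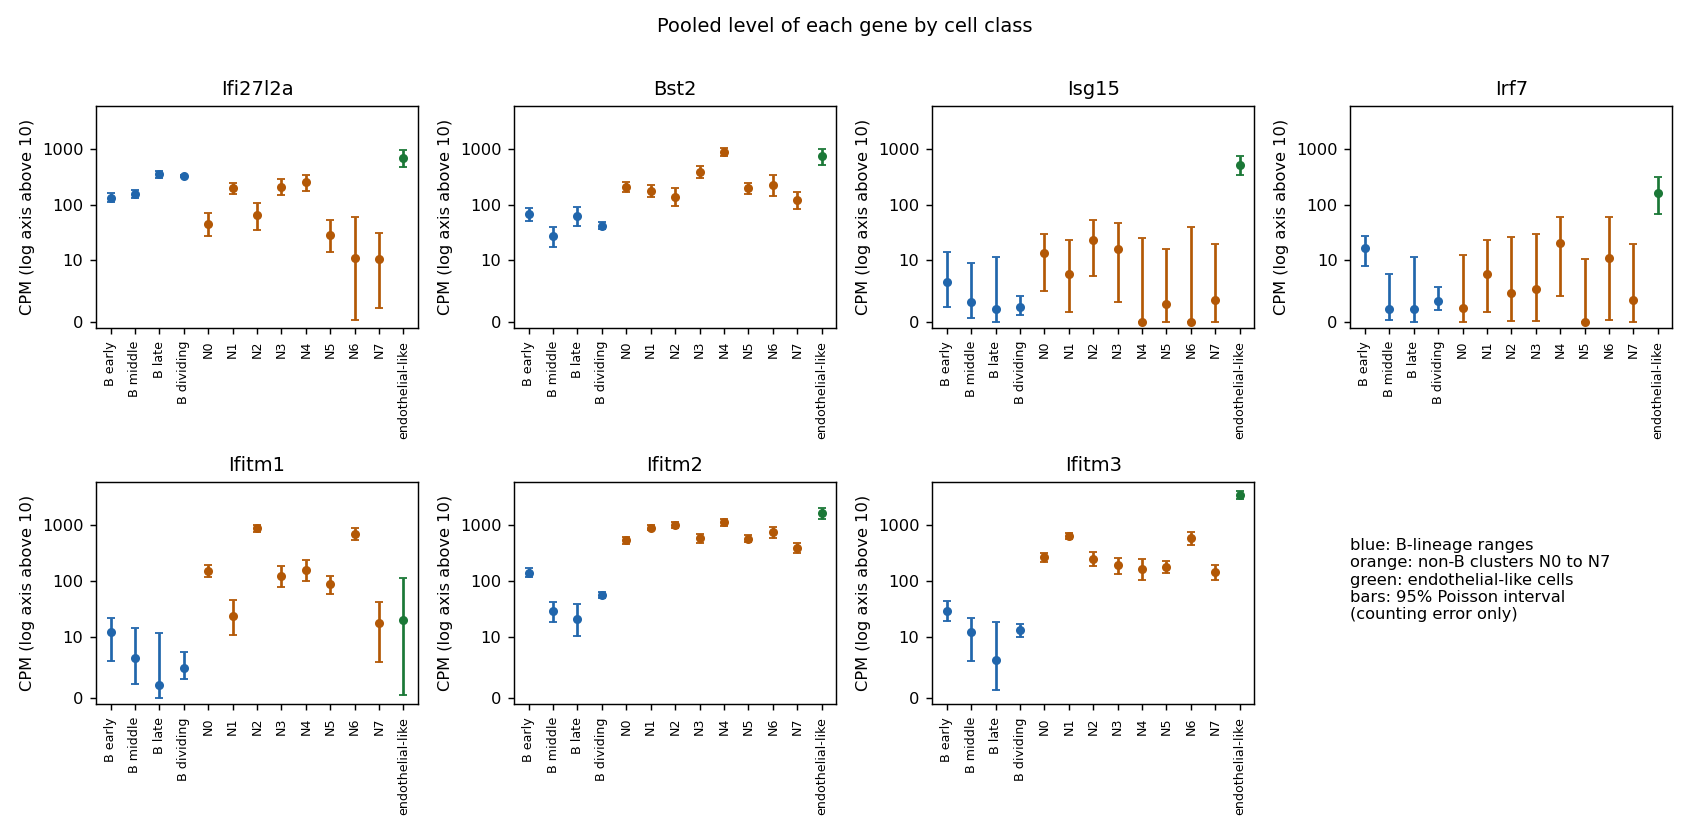
Pooled level of each gene in CPM (vertical axes, log scale above 10 and linear below) in the 4 B-lineage ranges (blue), 8 clusters of other cells N0 to N7 (orange) and endothelial-like cells (green), with 95% Poisson intervals that cover counting error only. Isg15 and Irf7 stand above 100 CPM in the endothelial-like cells alone, at 524 and 161 CPM, and Ifitm1 is highest in N2 (896 CPM) and N6 (698 CPM).

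Other interferon-induced genes were described from a list of 72, of which 71 were in the files and 16 were tested between ranges. From early to late cells 2 were called higher and 4 lower, 37.5% against 16.7% of all genes, with a median log2 fold change of -0.36 (0.01 over all genes). The 4 lower were Ube2l6 (-4.19, edgeR adjusted p = 4.84e-06), which encodes the enzyme that passes Isg15 to its targets, Lgals9 (-0.86, galectin-9), Ifi27 (-1.24, a relative of Ifi27l2a) and Ifi203 (-1.05). Sp100 (0.95), a nuclear body protein, and Slfn2 (1.25) were higher. From early to middle cells 3 were called higher and 8 lower (median -0.54), 68.8% against 20.9% of all genes. From middle to dividing cells 2 were called higher and 6 lower (median -0.31), 50% against 36.8% of all genes. Ifi27, of the same family as Ifi27l2a, stood at 180 ± 95.8 CPM in early and 78.3 ± 69.3 CPM in late cells (mean ± SD, n = 5), the opposite direction to Ifi27l2a.

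Of 24 genes of interferon signalling, 13 were tested. In late against early cells the transcription factors Irf8 (0.72, edgeR adjusted p = 0.00130) and Irf4 (1.19, edgeR adjusted p = 0.00150) and the inhibitor Socs1 (1.27, edgeR adjusted p = 0.00484) were higher, and Irf5 (-1.18, edgeR adjusted p = 0.00142) was lower. Irf4 and Irf8 are also known regulators of light chain rearrangement in pre-B cells. These 4 are 30.8% of the 13, against 16.7% of all genes, and the median over the 13 was 0.25. The receptor chains Ifnar1 and Ifnar2 were at 96.4 and 68.0 CPM in early and 103 and 88.1 CPM in late cells (means of 5 libraries) and did not pass. From middle to dividing cells 5 of the 13 (38.5%) were lower and none higher by edgeR. Of all genes, 16.7% were called lower and 36.8% in either direction. No kept cell held a UMI of any of 12 interferon genes themselves, and 1 UMI of Ifng was found among the barcodes left out.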

How the data were processed

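The authors deposited 5 tables of UMI counts, 1 for each library, with genes against barcodes. Their processing notes, as the submitters gave them, name Cell Ranger, mm10, DESeq2 1.22.2, edgeR 3.24.3 and R 3.5.2 with no role stated; the Cell Ranger version is not given in the sources used here. Barcodes with at least 500 genes, at least 1000 UMIs and at most 10% mitochondrial UMIs were kept. Clustering (scanpy 1.11.5, leidenalg 0.10.2, resolution 0.8) left out 78 interferon genes. Scrublet marked 58 doublets, which stayed in and were left out as an alternative.

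UMI counts were summed per library and range (at least 10 cells) and tested with the edgeR 4.0.16 quasi-likelihood F test in R 4.3.3, with TMM scaling, filterByExpr, the library as a block and Benjamini-Hochberg adjustment over all genes tested at 0.05. Each SE was derived from the F statistic as the absolute log2 fold change over sqrt(F). Age contrasts had no block. Levels are CPM of all UMIs of a sum, and a count of 0 allows up to 3 UMIs. The fit was also run on simulated counts with known changes.

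The members and lists were chosen with earlier results of these data known. All 7 members are named, though not in every comparison. Of the other lists, up to 4 genes in each direction of smallest p are named among those that passed from early to late cells. The 5 genes most like Ifi27l2a were also to be named, of which some are not reported here. The alternatives without shared barcodes, without cells with plasmacytoid or endothelial markers, and with or without replicate 2 were chosen after seeing the data.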

Additional observations from a re-analysis of the deposited data

Results flagged for a closer look

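The late over early ratio of Ifi27l2a in CPM differed in direction between libraries. It was 3.38 in young replicate 1, 3.35 in young replicate 3 and 2.17 in aged replicate 3, and 0.781 in young replicate 2 and 0.941 in aged replicate 2. The split by replicate number was noticed in the data, and the difference was not tested. Young and aged replicate 2 were also the libraries with 0 UMIs of Xist and 224 and 284 of Y-linked genes. Replicate number and the sex shown by these genes cannot be told apart here.

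Members were also found among the 1268 barcodes left out by the filter, which held 1106602 UMIs. These included 128 UMIs of Ifi27l2a, 55 of Bst2, 8 of Irf7, 36 of Ifitm1, 163 of Ifitm2 and 54 of Ifitm3. As levels these are 116 CPM for Ifi27l2a, 147 CPM for Ifitm2 and 48.8 CPM for Ifitm3. Isg15 had 2 UMIs there, below the 3 that a count of 0 allows.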

How the results depend on the processing

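Ifitm2 passed in late against early and in middle against early cells under all 18 alternatives. Values that changed sign were as follows. For Ifi27l2a, late minus early was -0.15 in replicate 2 alone, and middle minus early was -0.44 with ranges cut on full counts and -0.63 in replicate 2 alone. For Bst2, late minus early was -1.75 to 0.067 leaving out 1 library (highest without aged replicate 3) and 0.064 without both libraries of replicate 2. Late minus middle was -0.64 to 1.31 leaving out 1 library (lowest without young replicate 3) and -0.36 without plasmacytoid-marker cells, and dividing minus middle was -0.17 to 0.37 (lowest without young replicate 3). For Ifitm2, late minus middle was -0.92 to 0.0076 leaving out 1 library (highest without young replicate 3) and 0.25 in replicate 2 alone. The cause of these changes was not tested, beyond the single cell described for Bst2.

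Counts of called genes moved most for late minus middle cells. Against 13, they were 6 with DESeq2, 27 with no filter on low counts, 30 with ranges cut on full counts, 7 with at least 3 cycle genes, 7 with at least 1500 UMIs, 6 with no library block and 8 in replicate 2 alone. Leaving out 1 library gave 8 to 25. With ranges cut on full counts the counts were 351 for late minus early (reported 679), 452 for middle minus early (851) and 898 for dividing minus middle (1496). Without the replicate block (no library block) they were 437 and 506 for the first 2. Without both libraries of replicate 2 they were 541 for middle minus early and 748 for dividing minus middle. In replicate 2 alone they were 217 for late minus early and 417 for middle minus early. The interaction with age called 1 gene as reported and 0 with DESeq2, no filter, ranges cut on full counts, 3 cycle genes, doublets left out, 1500 UMIs or no block, and 0 to 1 leaving out 1 library.

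Between ages, 0 genes were called by edgeR as reported, 10 in resting and 4 in dividing cells with no filter on low counts. Replicates 2 and 3 are numbered in both groups, and their deviations from the group means correlated at 0.26 and 0.15 over 5964 genes, but 2 pairs cannot show pairing. The replicate block gave 0 calls in resting and 11 in dividing cells. Likeness of Bst2 to Ifi27l2a (0.58) was 0.43 without plasmacytoid-marker cells and 0.45 to 0.66 leaving out 1 library. Likeness of Ifitm2 (0.19) was 0.080 with a pseudocount of 50 and 0.034 to 0.29 leaving out 1 library. Depth limits the 3 scarce genes most: a late sum of aged replicate 2 allows up to 52.1 CPM at 0 UMIs.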
